A study of Mus musculus with 20 samples.

Results

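The genes described here are the matrix metalloproteinases *Mmp2*, *Mmp9*, *Mmp13* and *Mmp14*, the tissue inhibitors of metalloproteinases *Timp1*, *Timp2* and *Timp3*, and the membrane sheddases *Adam10* and *Adam17*. They were taken by symbol, and all 9 were found among the 24552 genes of the table. Of these, 6 passed the filter on low expression and were tested together with 11288 genes in all; *Mmp9*, *Mmp13* and *Timp1* stayed under it and are given as read counts.

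Matrix metalloproteinases are zinc-dependent endopeptidases that cut collagens, laminins and other matrix proteins, and most are secreted as inactive proenzymes. TIMPs bind the active site of these enzymes, and the membrane-bound MMP14 uses TIMP2 as a bridge to bind and activate proMMP2. ADAM10 and ADAM17 cut the extracellular part off membrane proteins such as NOTCH1 and the ligands of the EGF receptor, a pathway that corneal epithelial cells use when they migrate over a wound.

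Bulk RNA sequencing was done on the corneal epithelium of 20 naive female wild-type C57BL/6J mice, 5 at each of 4 ages, labelled 2 to 3, 12 to 13, 18 to 19 and 24 to 25 months. The epithelium of both corneas of 1 animal was scraped off and made into 1 library, so the libraries of an age are separate animals and the p-values measure the spread between animals. The mice were bought, aged in house or received from the National Institute of Aging, and which animals came from where was not given in the sources used here, so source and age cannot be told apart. The 2-month group is the young group, and the 12-, 18- and 24-month comparisons all share its 5 libraries.

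The libraries held 6699383 to 10762360 reads on genes. *Krt12*, the keratin that defines corneal epithelium, had 203580 to 285894.7 normalized counts in every library, and all 13 corneal epithelium markers had reads. Of 16 stromal keratocyte markers all had reads as well, and their summed level is given beside *Mmp2*. Within an age, the median correlation of a library with the other 4 ran from 0.909 to 0.953 over the tested genes, and was lowest for 18-month replicate 2. A normalized count is the read count divided by the size factor of the library.

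In the limma fit of the 4 ages, DEGs were genes that changed 1.2-fold or more at an adjusted p of at most 0.05. None of the 6 tested members was a DEG (0 in each comparison), where DEGs made up 0.532% (12 vs. 2 months), 0.673% (18 vs. 2 months) and 0.78% (24 vs. 2 months) of all tested genes, 1.01% for all aged vs. young libraries and 0.195% for 24 vs. 12 months. At an unadjusted p under 0.05, limma gave 1, 1, 2, 1 and 1 of the 6 members in these 5 comparisons, where it gave 9.56%, 7.18%, 9.97%, 7.89% and 14.7% of all tested genes. With voom on the recovered read counts, 1 member, *Mmp2*, was a DEG in the aged vs. young comparison. The values of each gene follow by role, the proteases first.

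*Mmp2* encodes gelatinase A, a secreted enzyme that cuts denatured collagen and basement membrane collagen and that is made largely by fibroblasts and keratocytes. It lies at chr8:92827290-92853421 on the plus strand of GRCm38. Its normalized counts were highest in the young group, and the mean at 24 months was 0.145 times the young mean. Even so it did not pass the threshold in any comparison of this limma fit. The published study of these libraries, which used DESeq2 with the same thresholds, lists *Mmp2* among the DEGs that decreased with age. By quantitative PCR in further corneas, it reports a decrease of *Mmp2* in aged males similar to that in females.

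In the 5 young libraries, *Mmp2* had 61.39, 36.72, 77.63, 26.49 and 27.51 normalized counts, on 25 to 85 reads. At 12 months it had 18.38, 14.47, 22.5, 0 and 14.02 normalized counts. At 18 months it had 18.29, 0, 1.588, 13.44 and 37.71 normalized counts. All 12-month libraries therefore lay below all young ones, whereas 1 of the 5 18-month libraries, replicate 5, lay within the young range. At 24 months *Mmp2* had 0, 12.2, 3.784, 6.091 and 11.29 normalized counts, on 0 to 15 reads, and all 5 libraries lay below the young ones. Such a complete separation downward was found for 1.06% of tested genes at 12 months and 1.55% at 24 months. From 2 to 24 months the *Mmp2* means were 45.95 ± 22.6, 13.87 ± 8.48, 14.21 ± 15.3 and 6.673 ± 5.13 (SD, n = 5). The step from the young group to the next lower mean exceeded the larger of the 2 SDs, and the differences between the 3 aged groups did not.

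On the log2 scale of the normalized count plus 1, the *Mmp2* difference from the young group was −2.08 at 12 months (SE 0.946, 95% interval −4.02 to −0.14, limma adjusted p = 0.473). The 18-month value was −2.47 (−4.41 to −0.53, adjusted p = 0.478) and the 24-month value −2.94 (SE 0.946, adjusted p = 0.199), with an interval of 0.034 to 0.501 times the young level. Against all 15 aged libraries, of which 14 lay below every young library, it was −2.50 (SE 0.76, adjusted p = 0.148). The two-sided exact permutation test of *Mmp2* alone, without adjustment, gave p = 0.00794 at 12 and 24 months, the smallest that 5 against 5 libraries can give, p = 0.0317 at 18 months and p = 0.00716 for all aged libraries. The tests at 12, 18 and 24 months are 3 of 27 such tests of single members by age, and that of all aged libraries is not among the 27. Between 24 and 12 months the *Mmp2* difference was −0.85 (−2.79 to 1.09, adjusted p = 0.717).

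The result for *Mmp2* depended on how counts near 0 were treated. With 10 in place of 1 added before the logarithm, *Mmp2* was a DEG at 24 months (−1.72, limma adjusted p = 0.0322) and in the aged vs. young comparison (−1.44, adjusted p = 0.0188). With voom it was a DEG in the aged vs. young comparison (−2.75, adjusted p = 0.0103) but not at 24 months (−3.15, adjusted p = 0.196). Leaving out 12-month replicate 4, whose count was 0, moved the 12-month difference to −1.25, and leaving out 24-month replicate 1, also at 0, moved the 24-month difference to −2.32.

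The 16 stromal keratocyte markers summed to 1982 to 5134 normalized counts in the young libraries, to 815.7 to 1897 at 12 months, to 800.3 to 1630 at 18 months and to 452.9 to 1302 at 24 months. No aged library reached the lowest young one. The largest parts of the young sum (mean 3950) were *Col1a2* (mean 1204), *Dcn* (1022) and *Col1a1* (928.5), so the sum mostly follows these genes. Of the 14 markers tested, 6 were DEGs with lower values at 24 months (*Col1a1*, *Col1a2*, *Col3a1*, *Col5a2*, *Col6a1* and *Dcn*) and 0 with higher values. At 18 months 2 of the 14 had higher values than in the young group, *Pdgfra* (0.06) and *Ptgds* (1.53), and neither was a DEG. *Kera* and *Lum* were not DEGs in any comparison, with differences of −1.23 and −0.79 at 18 months. The median difference of these 14 markers was −2.40 at 24 months, against 0.01 over all tested genes. *Mmp2* amounted to 1.18% ± 0.439 of the summed marker level in the young group, 1.04% ± 0.628 at 12 months, 1.24% ± 1.17 at 18 months and 1.03% ± 1 at 24 months (SD, n = 5). In single libraries it ran from 0.715% to 1.66% in the young group. At 12, 18 and 24 months it ran from 0% to 1.65%, 2.7% and 2.69%, so the similar means hide a wide spread. The part of keratocyte RNA in the *Mmp2* values was not tested; in such bulk libraries, fewer cells of a type and less RNA per cell cannot be told apart.

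**Figure D1:**
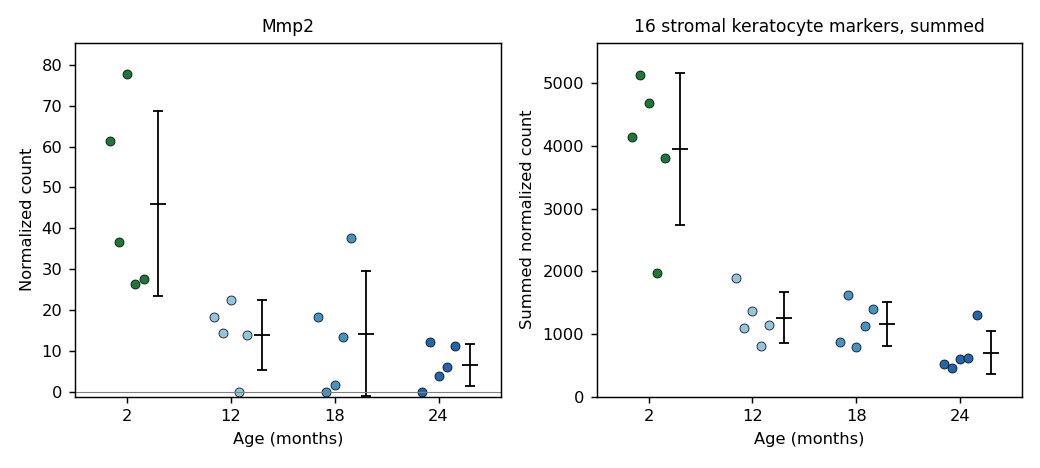
Normalized count of *Mmp2* (left) and summed normalized count of 16 stromal keratocyte markers (right) in each library by age in months; points are libraries, dashes and bars the mean and SD of 5. For *Mmp2* the 24-month libraries reach 12.2 at most and the young ones start at 26.49; the marker sums of the aged libraries reach 1897 at most and those of the young ones start at 1982.

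*Mmp9* encodes gelatinase B, which neutrophils store in granules and which epithelial cells make at a wound edge. It lies at chr2:164940326-164955850 on the plus strand. Over all 20 libraries it had 19 reads, and 14 libraries had none. The young group held 7 of them, 4 in replicate 4 and 3 in replicate 5. At 12 months replicates 1 and 3 had 1 read each, and at 24 months replicate 4 had 1. The other 9 were all in 18-month replicate 5, so no age had reads in more than 2 libraries. The exact permutation p-values against the young group were 0.563, 1 and 0.444 at 12, 18 and 24 months.

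The same 18-month replicate 5 had the highest summed level of 8 neutrophil markers, 909 normalized counts, where the other libraries of the series had 5.261 to 285. Most of it was *S100a9* (626.6) and *S100a8* (250.5), which stressed epithelial cells also express. In this library the receptor genes *Cxcr2* and *Csf3r* had 16 and 13 reads and *Retnlg* had 4. Of the 17 *Csf3r* reads of the series the other 4 were in 1 young library, and a 24-month library also had 16 reads of *Cxcr2*. *Mpo* and *Elane* had 0 reads in all libraries and *Ly6g* had 1. This library also had the highest count of *Mmp3*, stromelysin 1, with 342.3 normalized counts. The next highest marker sums, 285 in young replicate 1 and 180.5 in 18-month replicate 1, went with 0 reads of *Mmp9*. Young replicates 4 and 5, with 4 and 3 reads of *Mmp9*, had marker sums of 45.56 and 49.33. *Mmp9* reads and a high marker sum therefore met in 18-month replicate 5 only. The part of neutrophil RNA in these values was not tested.

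*Mmp13* encodes collagenase 3, the main collagenase of rodents that cuts fibrillar collagen. It lies at chr9:7272514-7283333 on the plus strand. The young libraries had 2, 0, 6, 5 and 4 reads, and the 12-month libraries 16, 4, 0, 4 and 0 reads. In all 5 libraries of the 18-month group *Mmp13* had 0 reads. The 24-month libraries had 15, 2, 14, 11 and 3 reads. A count of 3 reads per library stands for 2.38 to 3.66 normalized counts in the 18-month group, which is the level that a count of 0 in 1 library still allows.

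The 18-month value set against the young mean of 3.353 ± 2.3 normalized counts gave an exact permutation p = 0.0476, without adjustment over the 27 tests, and 1 young library was at 0 as well. The 24-month mean was 8.378 ± 5.93 normalized counts, and 3 of its 5 libraries lay above the young range, with an exact permutation p = 0.183. At 12 months the mean was 4.795 ± 6.02 and the exact permutation p = 0.929. Groups overlapped in each of these comparisons. The floors and the exact tests cover counting error and the spread between animals only. The methods of the study name no molecular identifiers, so copies made by amplification may count as separate reads.

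**Figure D2:**
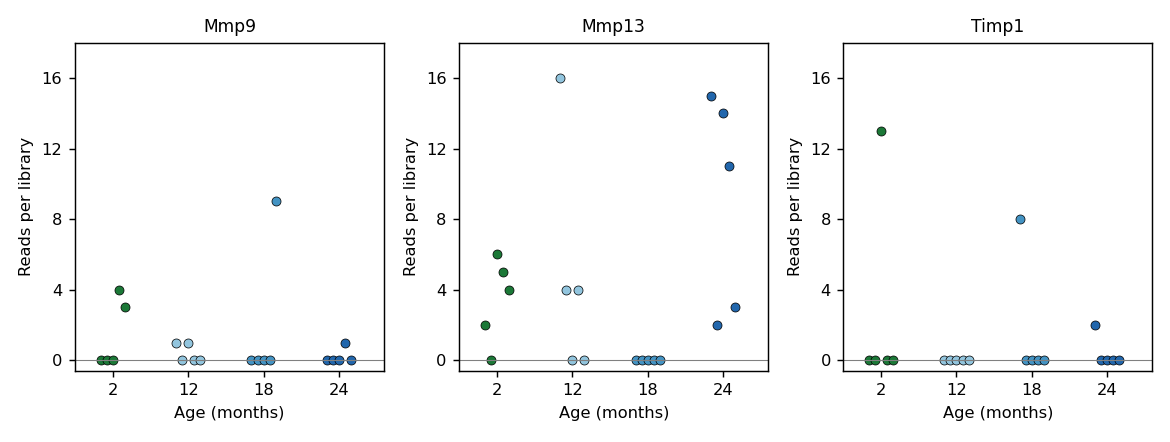
Reads per library of *Mmp9*, *Mmp13* and *Timp1* by age in months; each point is 1 of the 5 libraries of an age. *Mmp13* lies at 0 in the 5 18-month libraries and between 2 and 15 reads in the 24-month ones, and the reads of *Timp1* come from 3 libraries.

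*Mmp14* encodes MT1-MMP, the membrane-anchored collagenase that activates proMMP2. It lies at chr14:54431598-54442456 on the plus strand, and no comparison between ages passed the threshold. The young libraries had 2050, 2044, 1785, 1792 and 1888 normalized counts, and the 24-month libraries 1900, 1915, 2003, 1845 and 1893. At 12 months the counts were 1421, 1561, 1532, 1873 and 2193, and at 18 months 1966, 1107, 1822, 2022 and 1769. The 24-month libraries all lay within the young range, while 3 of 5 12-month libraries and 2 of 5 18-month libraries lay below it and 1 12-month library lay above it. The low value of 1107 belongs to 18-month replicate 2, the library with the lowest median correlation with the others of its age (0.909). That correlation hardly sets it apart, since 12-month replicate 4 had 0.910.

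The *Mmp14* means were 1912 ± 130 (SD, n = 5), 1716 ± 315, 1737 ± 367 and 1911 ± 57.6 from 2 to 24 months, and no neighbours in the order of the means differed by more than the larger SD. The 24-month difference was 0.00 (95% interval −0.28 to 0.28, limma adjusted p = 0.999), an interval that reaches from 0.826 to 1.21 times the young level. At 12 and 18 months the difference was −0.17 in both comparisons, with adjusted p = 0.762 and 0.904.

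*Timp2* encodes an inhibitor that is also the adaptor between MMP14 and proMMP2. It lies at chr11:118301061-118355411 on the minus strand and shares part of its span with *Cep295nl* on the same strand, a gene with 84 reads over all libraries. The young libraries spread widely, with 2599, 1657, 1271, 1590 and 1729 normalized counts. At 12 months *Timp2* had 1849, 2160, 1829, 1797 and 2914, at 18 months 1817, 1606, 1743, 1553 and 1764, and at 24 months 1665, 1764, 2058, 1353 and 1131 normalized counts. All ages overlapped with the young group.

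The *Timp2* means were 1769 ± 496, 2110 ± 473, 1697 ± 112 and 1594 ± 361 (SD, n = 5) from 2 to 24 months, and again no neighbours in their order differed by more than the larger SD. Against the young group the differences were 0.27 at 12 months, −0.02 at 18 months and −0.14 at 24 months, with limma adjusted p-values of 0.647, 0.994 and 0.828. Between 24 and 12 months the difference was −0.41 (95% interval −0.75 to −0.07), with an unadjusted p of 0.0189 and an adjusted p of 0.254, and 4 of the 5 24-month libraries lay below every 12-month library.

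*Timp3* encodes the inhibitor that stays bound to the matrix and also blocks ADAM17. It lies at chr10:86300412-86349505 on the plus strand, inside *Syn3* on the opposite strand, which had 903 reads over the 20 libraries. Whether reads were assigned by strand is not given in the sources used here, so reads of these 2 genes cannot be told apart with certainty. The *Syn3* counts were 49.48 ± 19.8 in the young group and 39.03 ± 19.8 at 24 months.

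The young libraries had 583.2, 592.8, 501.4, 450.3 and 671.6 normalized counts of *Timp3*, and the 24-month libraries 368.6, 479.7, 420, 451.6 and 496.9. At 12 months there were 463.3, 539.3, 535.7, 520.1 and 671.6, and at 18 months 446.4, 591.1, 444.6, 501.7 and 308.5. Of the 5 libraries of an age, 0 at 12 months, 3 at 18 months and 2 at 24 months lay below the young range. The means were 559.9 ± 85.9, 546 ± 76.5, 458.5 ± 103 and 443.4 ± 51 (SD, n = 5), each lower than that of the age before by less than the larger SD. The 24-month difference was −0.33 (SE 0.156, 95% interval −0.65 to −0.01), with an unadjusted p of 0.0437, a limma adjusted p of 0.483 and an exact permutation p of 0.0397. The 18-month difference was −0.31 (adjusted p = 0.715) and the 12-month difference −0.03 (adjusted p = 0.974).

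*Timp1* encodes the inducible secreted inhibitor that pairs with proMMP9. It lies at chrX:20870166-20874737 on the plus strand, inside *Syn1* on the opposite strand, which had 0 reads. *Timp1* had 13 reads in young replicate 3, 8 in 18-month replicate 1 and 2 in 24-month replicate 1, and 0 in the other 17 libraries. With reads in at most 1 library of an age, the exact permutation test could not separate the groups, and its p was 1 at each age. *Timp4*, the remaining member of the family, had 0 reads in all 20 libraries.

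*Adam10* encodes a sheddase of NOTCH1 and E-cadherin, and lies at chr9:70678944-70780229 on the plus strand. The young libraries had 461.5, 582.3, 780.8, 607.1 and 573.9 normalized counts, the 12-month libraries 620.4, 873.4, 658.9, 746.6 and 597.7. At 18 months there were 489.1, 643.9, 678.9, 755.2 and 735.9, and at 24 months 681.6, 605.8, 517.5, 703.1 and 763.3. In the 18- and 24-month groups every library lay within the young range, and 1 12-month library lay above it. The means were 601.1 ± 115, 699.4 ± 113, 660.6 ± 106 and 654.3 ± 95 (SD, n = 5). The differences from the young group were 0.22, 0.14 and 0.13 from 12 to 24 months, with limma adjusted p-values of 0.696, 0.94 and 0.827.

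*Adam17* encodes the enzyme that releases TNF and several EGF receptor ligands, and lies at chr12:21323509-21373632 on the minus strand. Its 3′ end overlaps with *Iah1* on the opposite strand, which had 6169 reads. As for *Timp3*, assignment by strand is not given, so reads in the shared stretch cannot be told apart with certainty. The young libraries had 757.5, 602.5, 563.5, 614.6 and 833.8 normalized counts, and those at 24 months 743, 718, 578, 693.6 and 634.4. At 12 months there were 701.3, 673.5, 705, 748.6 and 750.6, and at 18 months 591.5, 605.2, 816.2, 712.2 and 809.4. Every aged library lay within the young range of 563.5 to 833.8. The means were 674.4 ± 116, 715.8 ± 33.2, 706.9 ± 107 and 673.4 ± 66.8 (SD, n = 5), and the 24-month difference was 0.01 (95% interval −0.26 to 0.27, limma adjusted p = 0.993), that is 0.837 to 1.21 times the young level. For neither sheddase did neighbours in the order of the means differ by more than the larger SD.

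**Figure D3:**
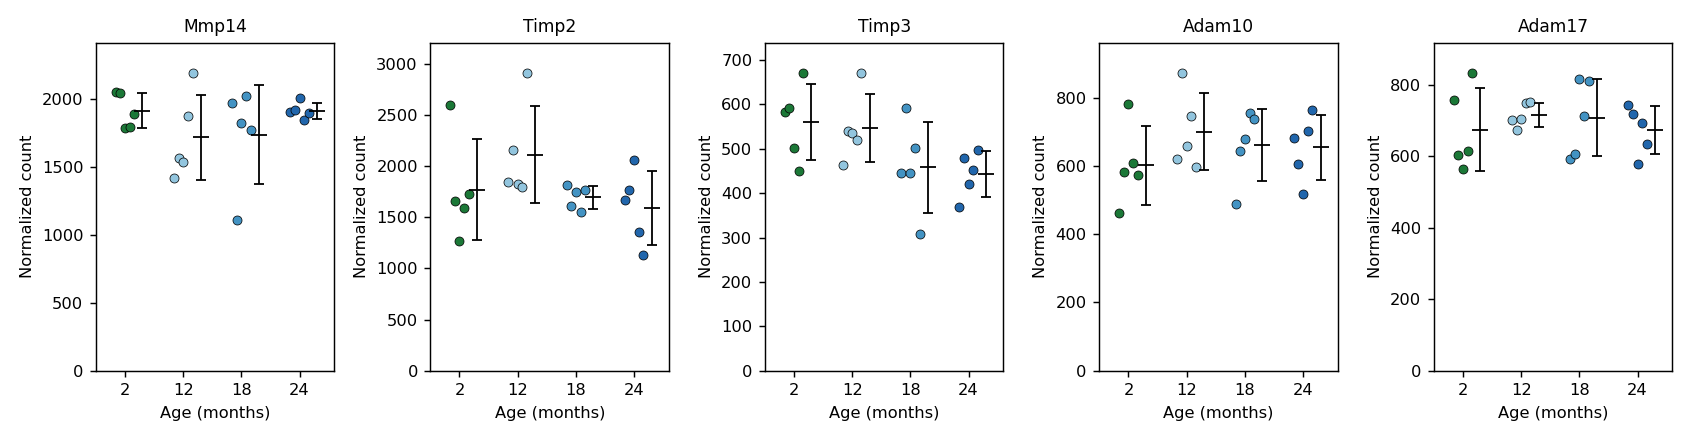
Normalized counts of *Mmp14*, *Timp2*, *Timp3*, *Adam10* and *Adam17* in each library by age in months; points are libraries, dashes and bars the mean and SD of 5, and each panel has its own scale from 0. The ages overlap in each panel, and the lowest *Mmp14* point, 1107, is 18-month replicate 2.

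**Figure D4:**
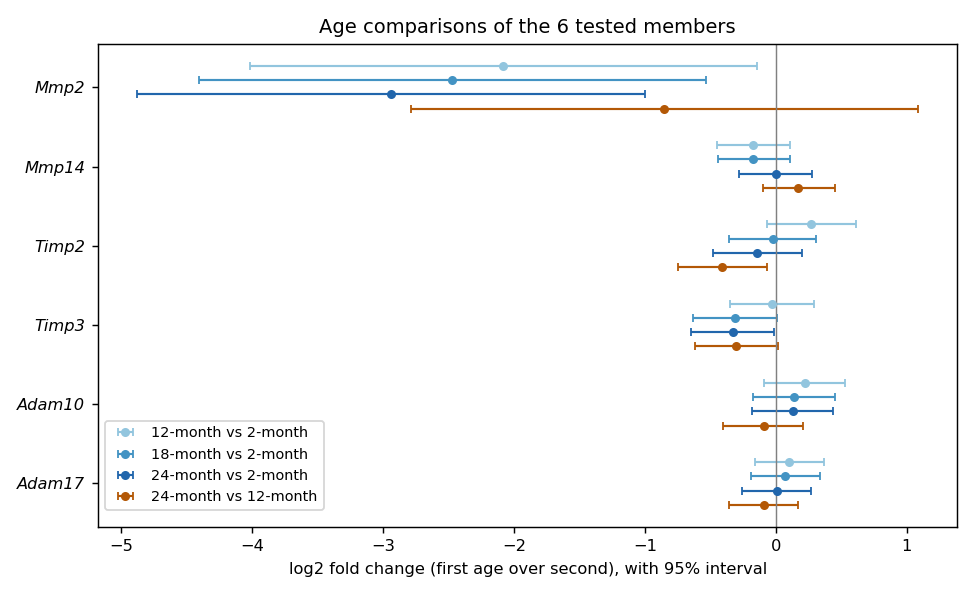
Difference in log2 normalized count with its 95% interval from the limma fit for the 6 tested members in 4 age comparisons. The intervals of *Mmp2* reach from −4.88 to −0.14 against the young group, and those of *Mmp14*, *Adam10* and *Adam17* include 0 in each comparison.

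The relatives of the members in the table were mostly at low counts. Of 23 MMP genes, 3 had no reads, 6 had 20 reads or fewer in all, and 6 were tested: *Mmp2*, *Mmp14*, *Mmp3*, *Mmp15*, *Mmp23* and *Mmp28*. None of these was a DEG in the comparisons with the young group (0 up and 0 down), and their median difference at 24 months was −0.56. *Mmp15*, another membrane-anchored enzyme, had a young mean of 152.5 ± 30.7 normalized counts and a 24-month mean of 116.6 ± 33.5 (−0.41, limma adjusted p = 0.623). *Mmp3* had 47.08 ± 23.8 and 29.92 ± 19.99 (−0.72, adjusted p = 0.757), and 97.83 at 18 months, a mean set by the 342.3 of replicate 5.

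Of 33 ADAM genes, 16 had no reads and 6 were tested. One of these, *Adam28*, a metalloprotease of lymphocytes and epithelia, rose. It had 345.3, 407.7, 377.2, 411.1 and 418.3 normalized counts in the young libraries and 751.8, 726.9, 625.3, 711 and 602.4 at 24 months. The 18-month libraries, with 561.8 to 890.6, also lay above all young ones. The share of all tested genes with such an upward separation was not counted. *Adam28* is named because it was a DEG on these same values, so the separation adds no support of its own. At 12 months the libraries had 410.4 to 696.7 and overlapped with the young group. The difference was 0.80 at 24 months (SE 0.146, limma adjusted p = 0.00273), 0.87 at 18 months (adjusted p = 0.00145) and 0.31 at 12 months (adjusted p = 0.488). For all aged vs. young libraries it was 0.66 (adjusted p = 0.0167), a call that ended without young replicate 1 (adjusted p = 0.0631) or 3 (0.0543).

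Of 24 genes of the ADAMTS and ADAMTS-like family, 5 were tested. The 3 with the highest mean counts, *Adamtsl4*, *Adamtsl5* and *Adamts18*, were not DEGs in any comparison. Their differences from the young group were 0.20, −0.26 and 0.32 at 18 months and 0.33, 0.08 and 0.31 at 24 months. *Adamtsl1*, a secreted relative without a protease domain, fell by 3.42 on the log2 scale at 18 months (SE 0.715, limma adjusted p = 0.0115), and at 24 months its difference was −1.70 (adjusted p = 0.406). The young libraries had 37.27, 43.47, 33.79, 36.03 and 66.4 normalized counts, the 18-month libraries 1.22, 24.63, 3.97, 2.688 and 0, and the 24-month libraries 8.776, 8.944, 12.3, 20.01 and 14.12. All libraries of both older ages lay below the young ones. Such a separation was found for 1.01% of tested genes at 18 months and 1.55% at 24 months. The 18-month values rest on 1, 21, 5, 3 and 0 reads. The 12-month libraries, at 5.097 to 60, overlapped with the young ones. With voom the 18-month call was lost (−3.81, adjusted p = 0.0584).

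Of 18 regulators of MMP activity outside the TIMP family, 11 were tested and 0 were DEGs in any of the 5 comparisons, with a median difference of −0.03 at 24 months. Among these, basigin (*Bsg*), which induces MMPs in neighbouring cells, had means of 508.2 ± 126 (young) and 542.6 ± 96.5 (24 months) normalized counts. The proprotein convertase *Furin*, which cuts proMMP14, had 438 ± 99.9 and 429.9 ± 98.6. The endocytic receptor *Lrp1*, which clears MMPs and TIMPs, had 480.4 ± 32.6 and 513.9 ± 63.5. *Reck*, a membrane inhibitor of MMPs, had 10 reads in all.

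Of 9 partners of ADAM10 and ADAM17, among them the iRhom gene *Rhbdf1* and the tetraspanin genes *Tspan5* and *Tspan14*, 8 were tested and 0 were DEGs, with a median difference of 0.28 at 24 months, against 0.01 over all genes. *Rhbdf1* averaged 568.6 normalized counts in young and 661.1 in 24-month libraries (0.21, limma adjusted p = 0.731), and *Tspan14* 388.4 and 490.6 (0.45, adjusted p = 0.694).

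Of 23 membrane proteins that these sheddases cut, 22 were tested, and 1 was a DEG at 18 months, at 24 months and for all aged libraries, with lower values. This was *Il1r2*, the decoy receptor of interleukin-1. It had 184.2, 128.9, 122.4, 34.97 and 115.7 normalized counts in the young libraries, 15.86, 11.73, 18.26, 37.63 and 25.14 at 18 months, and 38.03, 47.97, 19.87, 20.01 and 3.765 at 24 months. Young replicate 4, at 34.97, overlapped with both older groups. *Il1r2* fell by 2.31 at 18 months and by 2.32 at 24 months on the log2 scale (SE 0.517, limma adjusted p = 0.0226 and 0.0219). Leaving out young replicate 1, 2, 3 or 5 ended the call in both comparisons, with adjusted p-values of 0.0529 to 0.09, as did leaving out 18-month replicate 1, 2 or 3 or 24-month replicate 3, 4 or 5 in the comparison of that age (0.0553 to 0.0792). For all aged vs. young libraries the *Il1r2* difference was −1.97 (adjusted p = 0.0193), and without young replicate 1, 2, 3 or 5 the adjusted p was 0.0672 to 0.103. The substrates with the highest counts, *Sdc1*, *App* and *Cdh1*, were not DEGs, with differences of 0.08, 0.15 and 0.22 at 24 months.

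**Figure D5:**
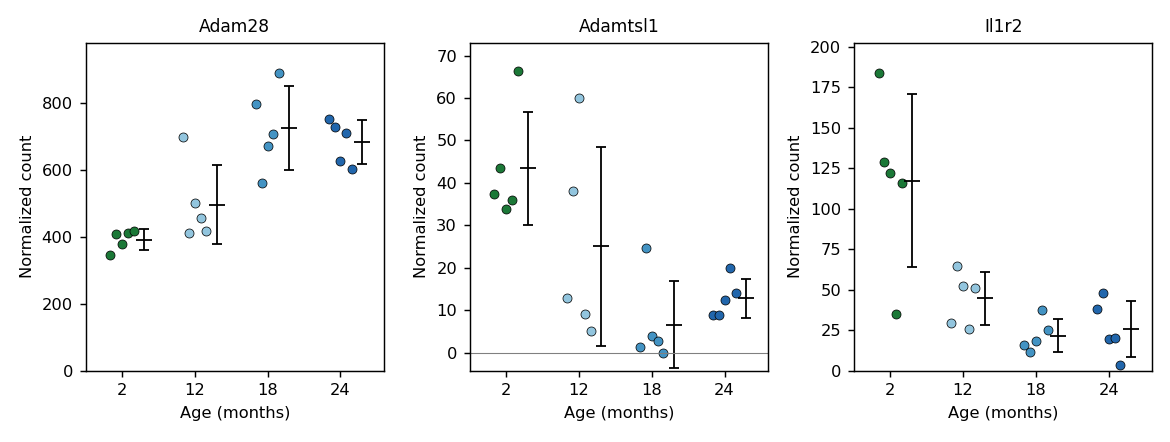
Normalized counts of *Adam28*, *Adamtsl1* and *Il1r2* in each library by age in months; points are libraries, dashes and bars the mean and SD of 5. *Adam28* lies at 602.4 or more at 24 months and at 418.3 or less in the young group, and the *Il1r2* groups overlap because of the young library at 34.97.

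As a description over the 20 libraries, which share depth differences and the age groups, the genes whose log2 values were most like those of *Mmp2* were *Aebp1* (Pearson r = 0.84), *Stag3* (0.83) and *Ddx43* (0.79), and the correlations of the deviations from the age means were 0.81, 0.76 and 0.70. The closest to *Mmp14* was *Ybx2* (0.84), to *Timp2* *Bclaf1* (0.94), to *Timp3* *Npr3* (0.84), to *Adam10* *Prom2* (0.79) and to *Adam17* *Ralgapa2* (0.73). All of these genes were picked for the highest r among many genes, and such a choice by itself raises r. How high the largest r would be by chance was not tested. *Aebp1* and *Ybx2* had means of 14.28 and 11.66 normalized counts, near the filter of 10. The other genes named had 23.76 (*Stag3*) to 1982 (*Bclaf1*). Among the members themselves, the correlation of the log2 values ran from −0.47 for *Timp2* and *Adam10* to 0.34 for *Timp2* and *Adam17*, and was 0.18 for *Mmp14* and *Timp2*. For the deviations from the age means the correlations of these pairs were −0.69, 0.28 and 0.39, where −0.69 was the lowest and 0.39 the highest of the 15 pairs.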

How the data were processed

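Libraries were primed with oligo-dT (Lexogen), so reads come from transcript 3′ ends. Per the submitters' processing notes and methods, cutadapt trimmed the reads, STAR placed them on GRCm38, HTSeq gave the counts per gene, and the relative log expression method of DESeq2 normalized them; versions are not given in the sources used here. The authors deposited these as log2 values, with 1 added to each normalized count. The authors also deposited a mean signal per gene and their own fold changes and p-values, which were not used.

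Tables were handled in Python 3.11.15 (pandas 2.3.3, numpy 2.4.6). Read counts were recovered from the values (100% were whole within 0.01 read). The 11288 genes whose mean normalized count reached 10 were fitted by age in R 4.3.3 with limma 3.58.1, with a variance trend and Benjamini-Hochberg adjustment; all aged libraries against the young ones came from a fit of 2 groups. Differences are on the scale of log2(normalized count + 1), where the added 1 shrinks the change of low genes and libraries at 0 can push it past the change in the means, as for *Mmp2*. Exact permutation tests were two-sided, on the log2 values, over 252 assignments of 5 against 5 libraries, with a smallest p of 0.00794. For all aged against the young libraries the smallest p that this test can give is 6.45e-05. Figures used matplotlib 3.10.9. The fit was also run on simulated counts whose spread was set by the mean count, not taken from genes such as *Mmp2*. No result given here rests on that run.

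The members and gene lists were chosen with earlier results of these data known. Named beyond the members were genes of the lists that were DEGs, the 3 genes per list with the highest mean count, the other TIMP and the genes most like each member. *Mmp23*, *Mmp28*, *Reck*, *Kera*, *Lum*, *Pdgfra*, *Ptgds*, *S100a8*, *S100a9*, *Mpo*, *Elane*, *Ly6g*, *Cxcr2*, *Csf3r* and *Retnlg* were named after their values were seen. Gene positions are those of RefSeq for GRCm38, matched by NCBI gene identifier for all 9 members, and overlaps and strands those of GENCODE. Alternatives were quantile normalization, no filter, a mean of at least 50, only the 2 groups compared, no fold threshold or 1.5-fold, pseudocounts of 0.1 and 10, voom, no variance trend, the replicate number as a block and leaving out each library. Protein sequences were not used here.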

Additional observations from a re-analysis of the deposited data

Results flagged for a closer look

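Within an age, the lowest or highest of 5 libraries was set against the rest by Dixon's ratio of its gap to the range, with a critical value of 0.71. Of 34 groups of a member and an age with a range above 0, 6 had such a library. In 5 of these the other 4 libraries were at 0, where the ratio is 1 whatever the count, so their number cannot be set against the roughly 1 in 20 that chance gives for continuous values. *Mmp14* had 1107 normalized counts in 18-month replicate 2, on 944 reads, where the other 4 libraries of that age had 1769 to 2022 (ratio 0.723). *Mmp9* had 8.703 normalized counts, 9 reads, in 18-month replicate 5 and 0.8702, 1 read, in 24-month replicate 4, with 0 in the other 4 libraries of each age. *Timp1* had 11.87 normalized counts in young replicate 3, 9.757 in 18-month replicate 1 and 1.95 in 24-month replicate 1, on 13, 8 and 2 reads, again with 0 in the other 4.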

How the results depend on the processing

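*Mmp2* was lower than in the young group under each of 30 alternative settings at each age, with log2 differences of −2.78 to −1.24 at 12 months, −3.26 to −1.35 at 18 months and −3.71 to −1.72 at 24 months, and limma adjusted p-values from 0.0322 to 0.424 at 24 months. Only quantile normalization, the pseudocounts, voom and leaving out a library of the 2 ages compared could move the difference. The other settings could change only its p-value or the call. With a pseudocount of 10, the number of members that were DEGs was 1 at 24 months and 1 in the aged vs. young comparison, and with voom 1 in the latter, each time *Mmp2*; in every other setting tried, leaving out each library included, it was 0. With a mean of at least 50, *Mmp2* was not tested. The related genes that were DEGs numbered 3 at 18 months, 2 at 24 months and 2 for aged vs. young. With voom there were 1 at 18 months and 4 for aged vs. young, without the filter 1 at 24 months and 4 for aged vs. young, and without the variance trend 1 at 24 months and 0 for aged vs. young. Leaving out 1 library gave 1 to 2 at 24 months, 0 to 2 for aged vs. young (0 without young replicate 1 or 3) and 0 to 1 (without 12-month replicate 1) between 24 and 12 months. Of the 27 exact tests of single members, 5 gave p of 0.05 or less, and 3 to 6 did when 1 library was left out, 3 without young replicate 2 and 3 without young replicate 5. The tests of *Timp1* among the 27 could not do so, with reads in at most 1 library of an age.

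Of the differences near 0, 7 changed sign when 1 library was left out, and none of these was past the threshold. The ranges were −0.02 to 0.03 for *Mmp14* at 24 months, −0.13 to 0.13, −0.25 to 0.01 and −0.07 to 0.18 for *Timp2* at 18 months, 24 months and for aged vs. young, −0.11 to 0.04 for *Timp3* at 12 months, and −0.05 to 0.09 and −0.00 to 0.14 for *Adam17* at 24 months and for aged vs. young. The sign also changed for the exact permutation tests of *Mmp9* at 18 months (p from 0.444 to 1 when 1 library was left out, and 1 with a pseudocount of 10), *Mmp13* at 12 months (p from 0.429 to 1, and 0.786 with a pseudocount of 10) and *Timp1* at 18 and 24 months (p from 0.722 to 1). The replicate numbers of the labels did not pair the animals: the correlation of deviations from the age means ran from −0.303 to 0.159 over 30 pairs of libraries with the same number and from −0.267 to 0.294 over 120 with different numbers. With the replicate block the *Mmp2* difference at 24 months kept its value of −2.94 (limma adjusted p = 0.254), and 0 members were DEGs. The cause of these changes was not tested. With 5 animals per age, the 95% interval of *Mmp14* at 24 months still allows 0.826 to 1.21 times the young level, and that of *Mmp2* 0.034 to 0.501 times.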
